A study of Mus musculus with 12 samples.

Results

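The miRNAs transcribed opposite Rtl1 were examined in quadriceps muscle of 6 cofilin-2 null mice (KO1 to KO6) and 6 wildtype mice (WT1 to WT6), all of strain C57Bl/6 and at postnatal day 7. The members were the names in the deposited table with the stem miR-127, miR-136, miR-431, miR-433 or miR-434, with or without a star, -3p or -5p, which gave 10 of the 1096 miRNA names: mmu-miR-127, mmu-miR-127*, mmu-miR-136, mmu-miR-136*, mmu-miR-431, mmu-miR-431*, mmu-miR-433, mmu-miR-433*, mmu-miR-434-3p and mmu-miR-434-5p. The KO mice lacked cofilin-2, the muscle isoform of an actin-severing protein, and the methods describe the wildtype mice as littermates; each sample was whole muscle, so that fewer cells of a type and less RNA per cell cannot be told apart. All WT samples were labelled with Cy5 and all KO samples with Cy3, so that dye and genotype cannot be told apart for any value below.

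A miRNA is cut from a hairpin precursor that can release a mature RNA from each of its arms, and bases 2 to 8 of the mature RNA, the seed, carry most of the pairing to target mRNAs. Rtl1, an imprinted gene derived from a retrotransposon and needed for placental capillaries and fetal muscle, is expressed from the paternal chromosome of the Dlk1-Dio3 domain. The miRNA hairpins on the opposite strand are expressed from the maternal chromosome as part of a long noncoding transcript, so their mature RNAs pair perfectly with Rtl1 mRNA and can direct its cleavage. In muscle, miR-127 and miR-431 have also been studied for their effect on satellite cells, the stem cells of the fiber.

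By RefSeq positions on GRCm38.p6, the 5 hairpins lay on the plus strand of chromosome 12, all within the span annotated for Rtl1, in the order Mir431 (chr12:109590447-109590537), Mir433 (chr12:109591715-109591838), Mir127 (chr12:109592846-109592915), Mir434 (chr12:109594506-109594599) and Mir136 (chr12:109595327-109595388). They covered 4942 bases from the first to the last, with 727 to 1590 bases between neighbors. RefSeq mature sequences were found for all 10 names. The table uses older names, in which a star marks the less abundant arm; miR-127 and miR-433 were taken as the -3p arms, miR-431 and miR-136 as the -5p arms, and the starred names as the other arm, following the naming of miRBase. The sequences below, with the seed in capitals, are those of the 6 members bright enough to be tested and of the second arm of miR-434, since the results turn on miR-434-3p and on how the arms of a hairpin compare:
mmu-miR-431: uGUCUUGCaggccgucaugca
mmu-miR-433: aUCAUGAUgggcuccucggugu
mmu-miR-433*: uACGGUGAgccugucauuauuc
mmu-miR-127: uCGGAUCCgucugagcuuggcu
mmu-miR-127*: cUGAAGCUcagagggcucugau
mmu-miR-434-3p: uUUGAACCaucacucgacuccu
mmu-miR-434-5p: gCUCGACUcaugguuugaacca

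The 10 mature RNAs had 10 different seeds, and none of these seeds was found in any other mature mouse miRNA of the RefSeq table. The members therefore share a place in the genome and not a seed family. The longest run of bases shared by 2 members was GUCUUGCAGG, 10 bases long, in the arms of miR-431, followed by UUUGAACCA, 9 bases long, in the arms of miR-434. Between members of different hairpins no shared run was longer than 7 bases.

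The values are normalized intensities of array spots on a linear scale. Each sample summed to between 594311 and 636136, and the precision is limited by the number of mice. Over the miRNAs tested, each sample was correlated with its group mates, and the mean Pearson r was 0.949 to 0.970 in WT and 0.907 to 0.945 in KO2 to KO6, but 0.848 in KO1, which stood apart; values without KO1 are given beside those that it moves most. Of 5 muscle-enriched miRNA names listed to check the tissue, 3 were in the table as spelled (miR-133a, miR-133b and miR-206), and they summed to between 35765 and 48020 in WT and between 31254 and 44055 in KO. Also, miR-1 was measured under the name mmu-miR-1a, with a mean of 45284 in WT and 51675 in KO, and of miR-486 the star form was found. Names marking neurons (miR-9, miR-124) summed to at most 38 in any sample and miR-122, the liver miRNA, was at most 16. The pair for endothelium, miR-126-3p and miR-126-5p, summed to between 2233 and 4745 in WT and between 765 and 2709 in KO. Almost all of this was miR-126-3p, with a log2 change of -1.20 (adjusted p = 0.0615 from limma), and the part of this difference in the results for the antisense miRNAs was not tested.

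None of the antisense miRNAs bright enough to be tested passed the adjusted threshold between KO and WT muscle. miR-434-3p alone of those tested was lower in KO at an unadjusted p under 0.05, by 0.72 on the log2 scale. limma was run on log2 values of the 370 miRNAs whose intensity averaged 32 or more, and 6 of the 10 antisense miRNAs were among them, each at 32 or more in all 12 samples. None of the 6 passed an adjusted p of 0.05, against 1.35% of all miRNAs tested. That share rested on KO1: 5 of 370 miRNAs passed with all samples and 49 without KO1, when again none of the 6 did. With array weights, which gave KO1 little weight, 115 passed and miR-434-3p was among them (adjusted p = 0.00773 from limma). The same weights were largest for KO3 (3.31), WT3 (2.64) and WT2 (2.63). For miR-434-3p, KO3 was the lowest KO sample, and WT3 and WT2 were the highest WT samples. One of the 6 passed the unadjusted threshold that the methods give, against 19.5% of all miRNAs tested in either direction and 9.73% that were lower in KO. None had all KO samples on one side of all WT samples, a pattern found in 2.43% of the miRNAs tested. Their median log2 change was -0.14, beside -0.08 over all 370, with 5 of the 6 values below 0 (210 of 370 among all).

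**Figure D1:**
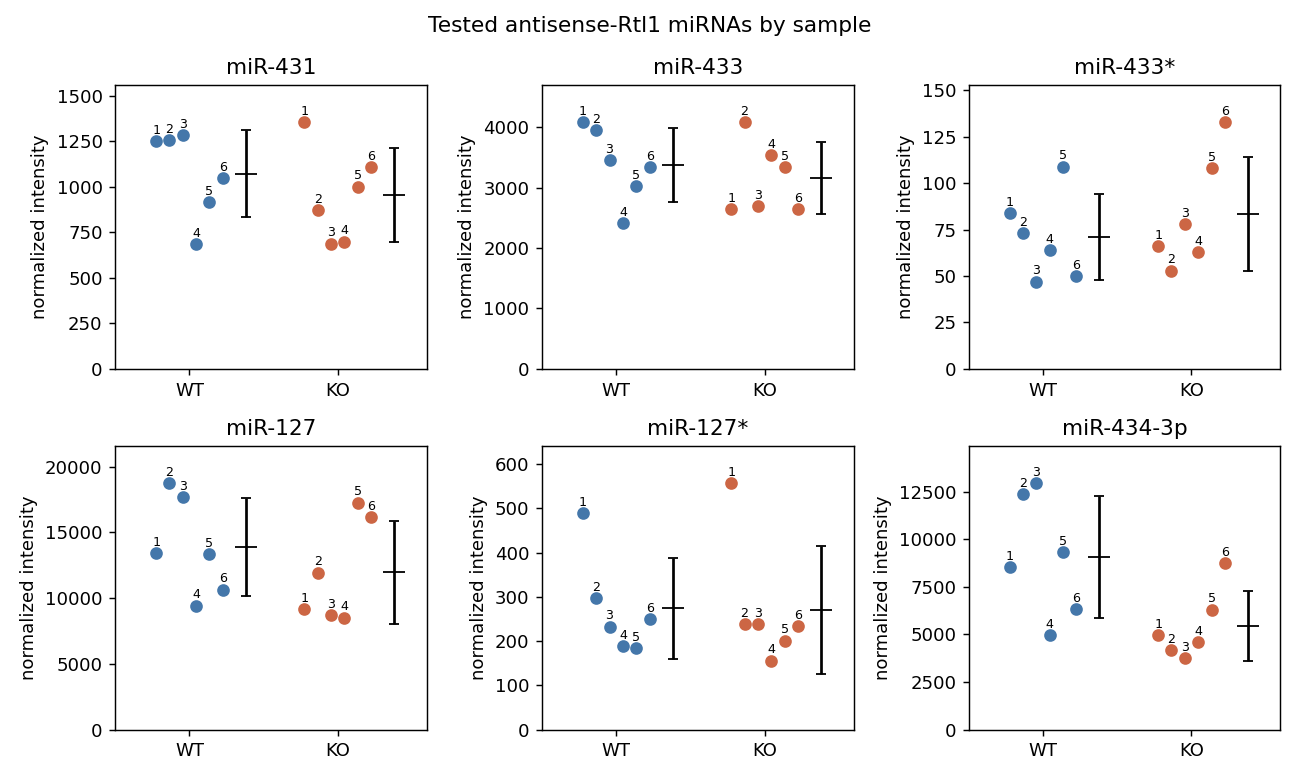
Normalized intensity (linear scale, from 0) of the 6 tested antisense-Rtl1 miRNAs in each sample, with the sample number above each point and the group mean ± SD (n = 6) in black. The WT and KO points overlap in every panel. For miR-434-3p and also for miR-127, 3 KO samples lie under every WT sample. For miR-434-3p all 6 KO samples lie under the WT mean.

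miR-434-3p ranged from 4957 to 12966 with a median of 8921.5 in WT, and from 3764 to 8745 with a median of 4783.5 in KO. KO2, KO3 and KO4, at 4181, 3764 and 4588, were below every WT sample, and WT2, WT3 and WT5, at 12368, 12966 and 9306, were above every KO sample. All 6 KO samples were below the WT median, although KO6, at 8745, reached the level of WT1 at 8537, and WT4, at 4957, was within the range of KO. WT averaged 9074 ± 3192 (SD, n = 6), and KO averaged 5427 ± 1844 (SD, n = 6). The log2 change was -0.72 (standard error 0.285, 95% confidence interval -1.34 to -0.11), a geometric mean of KO at 0.606 of WT. limma gave p = 0.0246 (adjusted p = 0.170), and a two-sided exact permutation test over the 12 samples gave p = 0.0368. Passing the unadjusted threshold rested on several single samples: without WT2, WT3, KO2 or KO3 the log2 change was -0.62, -0.60, -0.66 and -0.63. It then lay just outside that threshold in limma (unadjusted p = 0.0597, 0.0614, 0.0501 and 0.0580, adjusted p = 0.351, 0.339, 0.253 and 0.316). Without KO1, the sample that stood apart, it was -0.71 and passed without adjustment (adjusted p = 0.129 from limma), although the exact permutation p was 0.0541. miR-434-5p, from the other arm, was too dim to test, at 18 to 40 in WT and 6 to 84 in KO.

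miR-127, for which cleavage of Rtl1 mRNA is known, ranged from 9423 to 18769 with a median of 13383.5 in WT and from 8521 to 17259 with a median of 10552.5 in KO. KO1, KO3 and KO4 lay below every WT sample, whereas KO5 and KO6 were above 4 of the 6 WT samples. The log2 change was -0.23 (standard error 0.255, 95% confidence interval -0.78 to 0.32, adjusted p = 0.685 from limma). On the scale of geometric means this interval runs from 0.581 to 1.25 times WT, so that a moderate change in either direction could not be told from none with these 12 mice. miR-127*, from the same hairpin, was at 185 to 490 (median 241.5) in WT and at 156 to 558 (median 236) in KO. Its highest values were those of WT1 and KO1, at 490 and 558, and the other 10 samples lay between 156 and 298. With all samples the KO minus WT difference was -0.06 on the log2 scale with a standard error of 0.319 (limma adjusted p = 0.954). It was -0.29 without KO1 (limma adjusted p = 0.460) and turned to 0.11 after cyclic loess normalization and to 0.13 without WT1.

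miR-431, which lies first of the hairpins, was at 683 to 1283 (median 1146.5) in WT and at 687 to 1355 (median 935.5) in KO. KO1 was the brightest sample of all, and the other 5 KO samples were below the WT median. The log2 change was -0.18 (standard error 0.234, 95% confidence interval -0.68 to 0.33, adjusted p = 0.738 from limma), or -0.29 (adjusted p = 0.393) without KO1. Its other arm, miR-431*, was at 6 to 25 in all samples and was not tested.

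miR-433 was at 2411 to 4086 (median 3395.5) in WT and at 2638 to 4080 (median 3017.5) in KO, and every KO sample fell within the range of WT. It had the narrowest interval of the 6, with a log2 change of -0.10 (standard error 0.198, 95% confidence interval -0.52 to 0.33, adjusted p = 0.865 from limma), or -0.05 without KO1. miR-433* was dim, at 47 to 109 (median 68.5) in WT and 53 to 133 (median 72) in KO, with KO6 at the top, and was the one tested member with a value above 0, at 0.22 on the log2 scale with a standard error of 0.280 (limma adjusted p = 0.736), and at 0.07 without KO6.

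miR-136, which with miR-127 was among the first miRNAs described opposite Rtl1, gave almost no signal here: miR-136 was at 0 to 5 and miR-136* at 1 to 11 over the 12 samples. Together with miR-431* and miR-434-5p these made 4 members below the filter. Of their 48 values 4 reached 32, all of miR-434-5p (WT2, WT5, KO5 and KO6), and none of the others was above 25. For these miRNAs a difference between KO and WT was not detectable at this signal.

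Since miR-434-3p passed the unadjusted threshold and the other tested members did not, the difference between their changes was tested directly. In each sample the log2 intensity of a member was taken minus that of another, and KO and WT were compared on this value by two-sided exact permutation for all 15 pairs of the 6 tested members; the value itself also depends on the spots, so that its change alone is read. miR-434-3p had the lowest log2 change of the 6, so its change relative to each of the other 5 was bound to be downward. The sizes were 0.49 to 0.94 on the log2 scale, and these 5 comparisons all share miR-434-3p. For miR-127 against miR-434-3p the within-sample difference was 0.45 to 0.93 (median 0.63) in WT and 0.88 to 1.51 (median 1.05) in KO. Of the WT samples, 5 were below every KO sample, WT4 being the exception. The change of this difference was 0.49 (SD 0.17 in WT and 0.30 in KO, n = 6 each, exact permutation p = 0.0087, adjusted over the 15 pairs p = 0.0649). The difference of miR-433* from miR-434-3p changed by 0.94 (exact permutation p = 0.0043, adjusted p = 0.0649), and that of miR-431 by 0.54 (exact permutation p = 0.0325, adjusted p = 0.162). miR-433 and miR-127* gave 0.62 and 0.66 (exact permutation p = 0.0519 and 0.145).

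After adjustment none of the 15 pairs passed, and 3 passed at an unadjusted exact permutation p of 0.05, so that an unequal change of miR-434-3p and its neighbors was not established. Without WT4, miR-127 and miR-433* each differed from miR-434-3p at adjusted p = 0.0487 and 0.0325 (exact permutation); without KO1 both were at adjusted p = 0.0974. Among the 10 pairs that did not hold miR-434-3p the differences were at most 0.45, and the exact permutation p was 0.132 to 0.913. Without KO1 the differences of 4 of these 10 pairs turned in sign, and they were at most 0.56 with an exact permutation p of 0.115 to 0.983. For the arms of a single hairpin, the difference between KO and WT was -0.17 for miR-127 minus miR-127* (exact permutation p = 0.695), turning to 0.12 without KO1 (exact permutation p = 0.697), and -0.31 for miR-433 minus miR-433* (exact permutation p = 0.390).

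**Figure D2:**
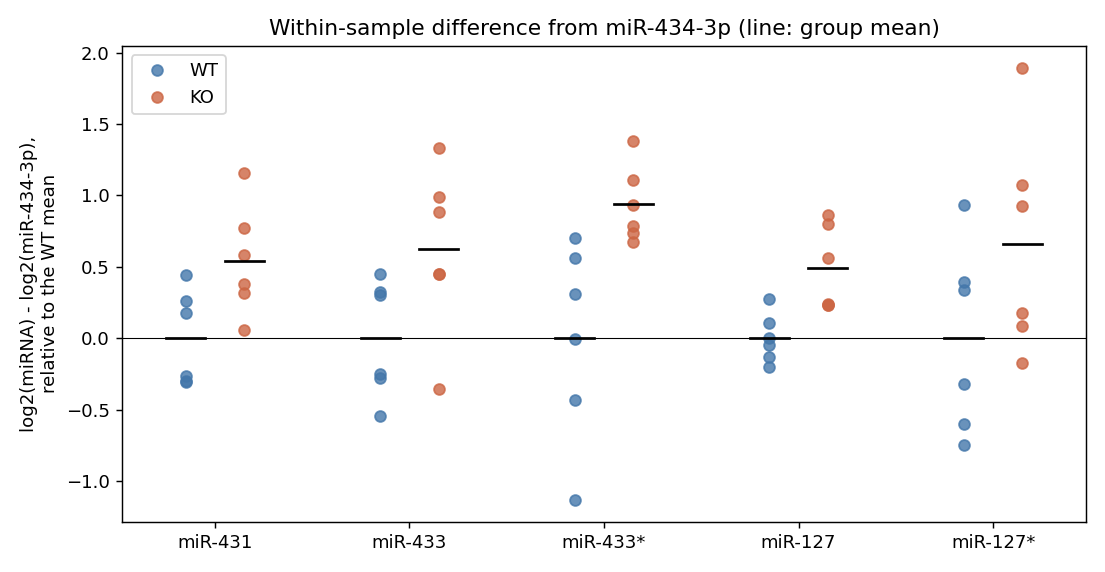
Within-sample log2 intensity of 5 tested members minus that of miR-434-3p, shown relative to the mean of the 6 WT samples; points are samples and black lines group means. The KO means lie above 0 for all 5, which follows from miR-434-3p having the lowest log2 change of the tested members. The WT and KO points overlap for each of the 5, with the smallest exact permutation p for miR-433* and miR-127. For miR-433* and also for miR-433, 5 KO samples lie above every WT sample, against 3 for miR-127. For miR-433 the remaining KO sample, KO6, lies low among the WT samples.

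How the members varied among the mice of a group was described by their deviations. After removal of the group means, miR-127 and miR-434-3p rose and fell together over the 12 samples, with a Pearson r of 0.874 and a Spearman rho of 0.839; r was 0.984 within WT and 0.786 within KO, 0.894 without KO1 and 0.888 without the 2 samples farthest from the median of miR-127. WT4 was low and WT2, WT3, KO5 and KO6 were high for both. miR-431 went with miR-127* (r 0.708, and 0.569 without KO1), with miR-434-3p (r 0.691, and 0.833 without KO1) and with miR-127 (r 0.582, and 0.865 without KO1). Among all other miRNAs tested, miR-434-3p was only 27th by r with miR-431, and miR-431 only 29th by r with miR-127. For the arms of miR-127 r was -0.00102, a value that rested on KO1: it was 0.271 without that sample and 0.283 within WT. For miR-433 and miR-433* r was -0.24, and -0.32 without KO1. miR-433 went with miR-431 within WT (r 0.944, n = 6) and not within KO (r -0.39, n = 6), a difference that was not tested; over both groups r was 0.265, and 0.515 without KO1. Of the 15 pairs of members 12 had a positive r. Their median r was 0.265, beside -0.0175 over all 68265 pairs of tested miRNAs, and without KO1 these medians were 0.391 and -0.0121. With all samples the quartiles of r over all pairs were -0.350 and 0.339, and the median of the members lay between them. These values are descriptions over samples that share 1 normalization, without a test.

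**Figure D3:**
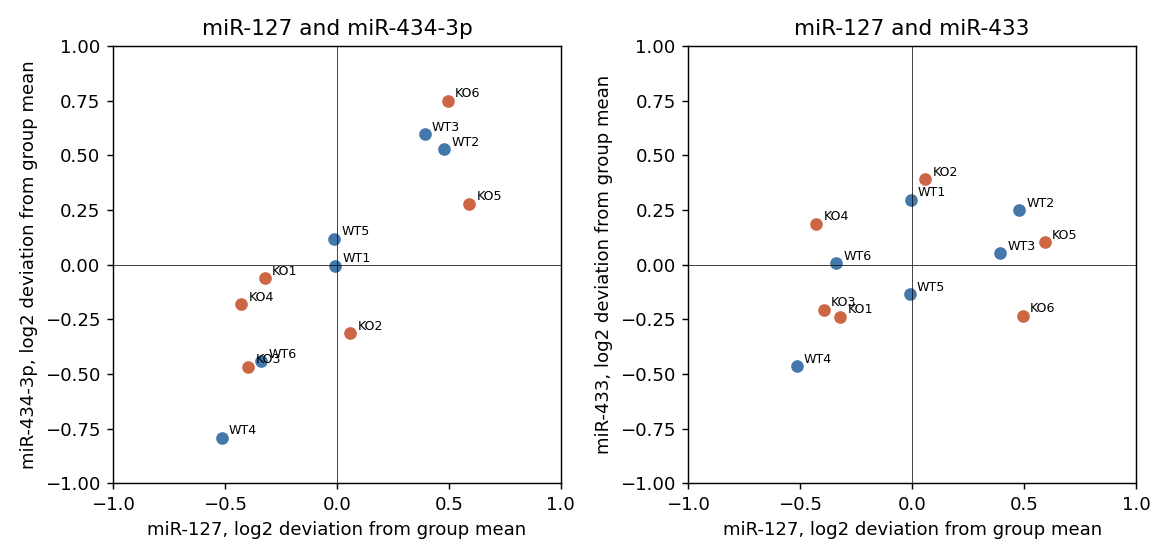
Deviation of log2 intensity from the group mean in each of the 12 samples, for miR-127 (horizontal) against miR-434-3p (left panel) and against miR-433 (right panel). The points follow a rising line for miR-434-3p (Pearson r 0.874) and scatter for miR-433 (r 0.367).

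The same deviations were compared with those of the other 369 miRNAs tested. The most alike for miR-127 were miR-133a (r 0.951), miR-133b (r 0.926), both muscle-enriched, and miR-434-3p itself. For miR-434-3p they were miR-380-3p (r 0.926), miR-411* (r 0.907) and miR-181a (r 0.881), of which the first 2 belong to the Dlk1-Dio3 domain. Likeness among mice of a group went with a like difference between the groups for some partners and not for others. Beside -0.72 for miR-434-3p, the log2 change was -0.71 for miR-181a (adjusted p = 0.121 from limma) and -0.08 for miR-411* (adjusted p = 0.922 from limma). It was 0.92 for miR-380-3p (adjusted p = 0.282 from limma), which was dim, at 26 to 116 in WT and 60 to 312 in KO. Beside -0.23 for miR-127, it was -0.35 for miR-133a and -0.38 for miR-133b (adjusted p = 0.493 and 0.476 from limma). Whether these changes differ from each other was not tested.

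The other miRNAs of the Dlk1-Dio3 domain give the setting of these values. Of 96 names listed from the domain, 54 were bright enough to be tested, from 40 hairpins, all of which RefSeq places on the plus strand of chromosome 12. At the unadjusted threshold 3 were higher and 2 were lower in KO, and 49 did not pass. These 5 of 54 stand beside 19.5% of all miRNAs tested, or 36 higher and 36 lower of 370. The median log2 change of the 54 was -0.06. The 3 were miR-376b, miR-376c and miR-381, which lie in the distal cluster, with log2 changes of 1.07, 0.70 and 0.49 (adjusted p = 0.0119, 0.220 and 0.202 from limma). miR-376b, at 2177 to 3615 in WT and 5023 to 7849 in KO, had all KO samples above all WT samples and was the 1 miRNA of the list past the adjusted threshold. The 2 lower in KO were miR-337-3p, which lies on the proximal side of Mir431, and miR-370, which lies on the distal side of Mir136. miR-337-3p was at 45 to 126 in WT and 24 to 110 in KO, with a log2 change of -0.92 (adjusted p = 0.232 from limma). miR-370 was at 70 to 107 in WT and 49 to 74 in KO, with a log2 change of -0.51 (adjusted p = 0.132 from limma). Both were dim beside the filter of 32, and the other arm of miR-337, miR-337-5p, named here after its values were seen, had a log2 change of 0.15 (adjusted p = 0.699 from limma).

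**Figure D4:**
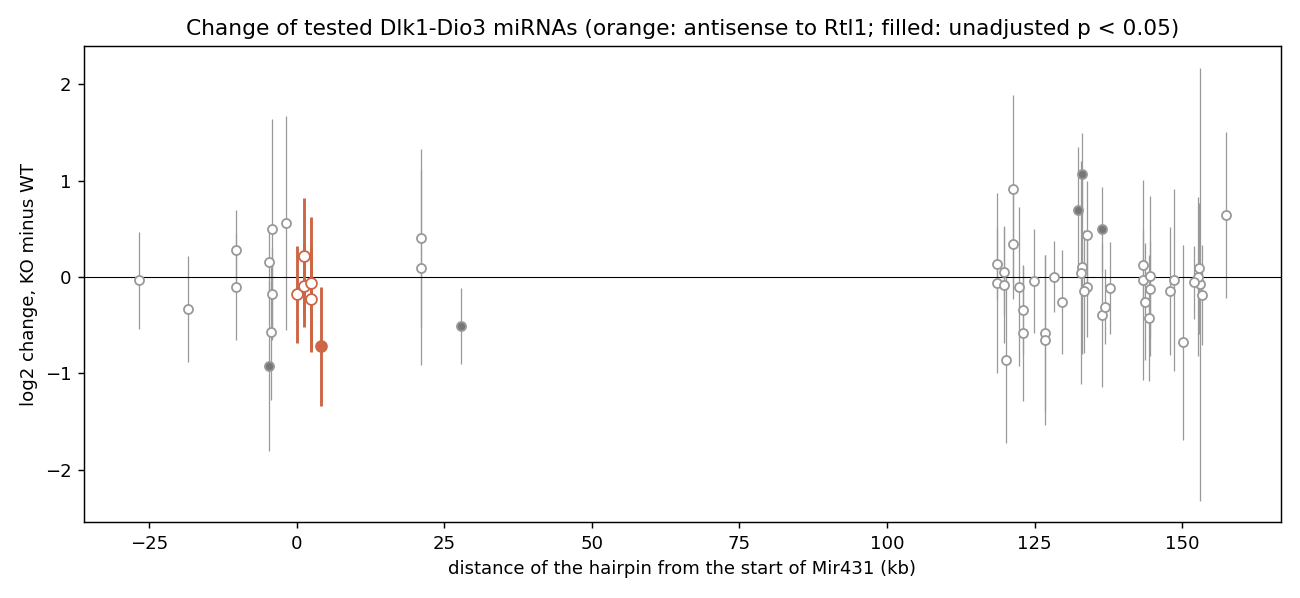
Log2 change (KO minus WT, with 95% confidence interval from limma) of the tested Dlk1-Dio3 miRNAs against the distance of their hairpin from the start of Mir431 in kb. Orange marks the 6 antisense-Rtl1 miRNAs and filled points those with an unadjusted p under 0.05: miR-434-3p, miR-337-3p and miR-370 lie below 0 in the proximal part, and miR-376b, miR-376c and miR-381 above 0 in the distal part, with most intervals crossing 0 in both.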

How the data were processed

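Total RNA (mirVana kit) was profiled by a service provider on an array for mouse miRBase. The authors deposited 1 table of normalized intensity values, linear and in whole numbers, for 12 samples; the methods state neither the normalization nor the background correction. Samples were grouped by genotype as labelled, and all 12 were used; the mRNA arrays of the study were not analysed here. Of all values 220 were 0 and none was missing.

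A floor of 1 was applied before taking log2. Two-sided tests of genotype used limma 3.58.1 (lmFit, eBayes) in R 4.3.3 on the 370 miRNAs that averaged 32 or more, with Benjamini-Hochberg adjustment over all of them and a threshold of 0.05. Single values were tested by exact permutation over the 924 assignments of the samples (smallest possible p = 0.0022). The fit was tested on simulated data with known changes. The members and lists were chosen with earlier results of these data known. All 10 members are accounted for; for each tested member the 3 miRNAs most like it were named, and from the Dlk1-Dio3 list the 3 largest rises and falls past the unadjusted threshold. The names listed as markers were, for skeletal muscle, miR-1, miR-133a, miR-133b, miR-206 and miR-486, with others for endothelium, blood cells, smooth muscle, neurons and liver. Of these, red blood cell names (miR-144, miR-451) summed to 49 to 420 in WT and 18 to 318 in KO, white blood cell names (miR-142-3p, miR-142-5p, miR-223, miR-150) to 31 to 62 and 33 to 63, and smooth muscle names (miR-143, miR-145) to 3555 to 4909 and 3241 to 6241. RefSeq tables of GRCm38.p6 gave sequences and positions; the files name no genome build. The fit was repeated with each sample left out, with array weights, with a variance trend (robust) and with samples blocked by replicate number. Student's t-test, which the methods name for the mRNA arrays and not for the miRNA array, was also run on the log2 values. Further repeats used cyclic loess, quantile normalization or median centring. Others had the filter removed or raised to 500, or a pseudocount of 50 or values floored at 32. Plots were drawn with matplotlib 3.10.9.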

Additional observations from a re-analysis of the deposited data

Results flagged for a closer look

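For each of the 6 tested members, the most extreme sample of each group was set against the other 5 (Dixon's test at the 5% level), in 12 groups in all; chance alone marks about 1 in 20 such groups, and 1 was marked. This was miR-127* in KO, where KO1 read 558 while KO2 to KO6 spanned 156 to 239; on the log2 scale the gap below KO1 took up 0.665 of the whole KO range, above Dixon's critical value. KO1 was also the sample with the lowest correlation to its group over all miRNAs tested and the highest of KO on miR-431. WT4 was the lowest WT sample on 4 of the 6 tested members, miR-127, miR-431, miR-433 and miR-434-3p, and was marked on none of them.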

How the results depend on the processing

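The log2 changes of miR-127, miR-431, miR-433, miR-433* and miR-434-3p kept their sign under all alternatives run, but not their size: miR-127 ran from -0.47 (array weights) to -0.14 (without WT2), miR-431 from -0.48 (array weights) to -0.08 (cyclic loess), miR-433 from -0.19 (without WT4) to -0.02 (cyclic loess) and miR-433* from 0.07 (without KO6) to 0.35 (without WT5). That of miR-127*, -0.06, turned to 0.11 after cyclic loess and ran from -0.29 (without KO1) to 0.13 (without WT1) with a sample left out. For miR-434-3p it was -1.09 to -0.69 over 11 settings, past the unadjusted threshold in all 11, and -0.88 to -0.60 with a sample left out, past it in 8 of 12. Array weights, which gave KO1 the weight 0.156 against 0.500 to 3.31 for the other samples, took miR-434-3p past the adjusted threshold (adjusted p = 0.00773, range over settings 0.00773 to 0.390). The largest weights were those of KO3, WT3 and WT2, the lowest KO and the highest WT samples of miR-434-3p. With these weights 1 member passed after adjustment and 2 without it, miR-434-3p and miR-431. Dropping 1 sample gave 0 to 1 members past the unadjusted threshold (0 without WT2, WT3, KO2 or KO3) and 0 to 2 pairs past the adjusted one (2 without WT4). The Dlk1-Dio3 count of 5 was 3 with a mean intensity of at least 500, 8 with the replicate block, 19 with array weights and from 3 (without WT3 or WT5) to 7 (without KO1) when 1 sample was dropped. Of all miRNAs 5 passed after adjustment: 1 with no filter, 14 with a pseudocount of 50, 11 after cyclic loess, 14 with a variance trend, 8 after quantile normalization, 21 with the filter at 500, 115 with array weights and 3 to 49 with a sample left out (3 without WT3 or KO2, 8 without KO4, 11 without WT4, 49 without KO1). The unadjusted count of 72 was 156 with array weights, 123 with no filter and 45 with the filter at 500. Filters alter how many miRNAs are tested; otherwise the cause was not tested. The methods describe littermate pairs, but neither they nor the labels say that a number marks a pair, and the deviations of same-numbered samples correlated at -0.45 to 0.59; with the replicate block miR-434-3p had p = 0.0476 (adjusted p = 0.201) at a log2 change of -0.72, and 3 KO and 2 WT samples correlated best with their own number.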

Other observations

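By the same measure of likeness as for miR-127 and miR-434-3p, the Pearson r of log2 deviations from the group means over 12 samples, the remaining 4 tested members each had other partners. miR-431 was most like miR-99b (r 0.918), miR-673-5p (r 0.914) and miR-300 (r 0.900), of which the last 2 are also encoded in the Dlk1-Dio3 domain. miR-433 was most like miR-1306-3p (r 0.755), miR-410 (r 0.748) and miR-667 (r 0.718), and its r with miR-667, another miRNA of the domain, was 0.948 without KO1. miR-127* was most like miR-93 (r 0.984), miR-28c (r 0.946) and miR-210 (r 0.945), none of them in the domain, and these values were 0.975, 0.916 and 0.907 without KO1, in which miR-127* was highest. miR-433* was most like miR-199b* (r 0.889), miR-20b (r 0.822) and miR-496 (r 0.809), of which the last is in the domain. These values are descriptions, chosen as the highest of 369 for each member, and carry no test.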
